A study of Mus musculus with 4 samples.

Results

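Gas5, Snhg1, Snhg3, Snhg5, Snhg6, Snhg8, Snhg12, Snhg15 and Zfas1 are noncoding genes whose introns or transcripts hold small nucleolar RNAs (snoRNAs), and their spliced transcripts are known targets of nonsense-mediated decay (NMD). These 9 genes were taken by name from a table of 55401 genes, and every one of them had counts in all libraries. RNA was sequenced from splenic follicular B (FOB) cells, the mature B cells that recirculate through the follicles, sorted as B220+CD93-CD23highCD21low. There were 2 WT and 2 Hnrnpf bKO libraries from C57BL/6 mice aged 7 weeks. Both genotypes were Hnrnpf fl/fl, and the Hnrnpf bKO mice alone carried Cre, which is expressed in B cells. Loss of hnRNP F and presence of the Cre allele cannot be told apart in this design. Whether cells of several mice were pooled is not given in the sources used here, and the p-values measure only the spread between these libraries, which may be technical.

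Most vertebrate snoRNAs are made from introns: the host gene is transcribed and spliced, the intron lariat is opened, and its ends are trimmed back to the snoRNA. Box C/D snoRNAs guide ribose methylation of ribosomal RNA and box H/ACA snoRNAs guide its pseudouridylation. In the noncoding hosts the joined exons have no long reading frame, so that their translation meets early stop codons and the spliced RNA is degraded by NMD, a decay route that needs a translating ribosome, the UPF and SMG factors and, at most targets, an exon junction complex. hnRNP F is a splicing regulator that binds runs of G in RNA, and the comparison asks whether the level of host transcripts differs in FOB cells that lack it.

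The 9 host genes held 33 annotated snoRNA genes at 31 separate places, since Snord80 in Gas5 and Snora16a in Snhg12 are each entered under overlapping entries. Gas5 held 10, Snhg1 held 8, Snhg12 held 5, Zfas1 held 3, Snhg3 and Snhg5 held 2 each, and Snhg6, Snhg8 and Snhg15 held 1 each. Of the 33, 31 lay in an intron of 1 representative spliced transcript of the host, as the map of exons and snoRNA genes shows. The strand of the snoRNA was searched for TGATGA in the first 20 bases together with CTGA in the last 20, as in box C/D snoRNAs. Both were found in 20 of the 33 snoRNA genes, against 309 of all 1507 snoRNA genes annotated (20.5%). Of the rest, 7 of the 33 had ACA near the 3′ end, as in box H/ACA snoRNAs, against 291 of all 1507 (19.3%). The other 6 matched neither search. The following snoRNAs are shown because they are the only ones of these hosts with any counts (Gm23201 and Snord87) or stand for the C/D and H/ACA kinds in hosts described below. Sequences are those of GENCODE on GRCm38, 5′ to 3′, with the searched motifs in capitals. Gm23201 lies in Zfas1 at chr2:167064998-167065086 on the plus strand, Snord87 in Snhg6 at chr1:9942463-9942549 on the minus strand, Snord47 in Gas5 at chr1:161038082-161038158 on the plus strand, Snord50b in Snhg5 at chr9:88521797-88521868 on the minus strand, and Snora24 in Snhg8 at chr3:123507937-123508066 on the minus strand.
Gm23201: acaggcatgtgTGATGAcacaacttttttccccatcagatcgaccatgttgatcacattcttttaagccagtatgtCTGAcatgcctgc
Snord87: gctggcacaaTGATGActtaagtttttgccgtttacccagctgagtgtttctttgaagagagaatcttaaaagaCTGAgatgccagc
Snord47: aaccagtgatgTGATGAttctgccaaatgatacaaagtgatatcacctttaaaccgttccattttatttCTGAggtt
Snord50b: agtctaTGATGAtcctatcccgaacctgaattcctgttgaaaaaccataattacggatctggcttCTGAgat
Snora24: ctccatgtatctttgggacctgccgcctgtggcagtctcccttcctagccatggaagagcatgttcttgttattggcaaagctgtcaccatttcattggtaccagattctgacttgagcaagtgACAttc

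The counts of these genes are counts of the host and say nothing of the snoRNAs. Of the 33 snoRNA genes, 31 had 0 counts in all 4 libraries, as did 1261 of the 1507 snoRNA genes of the whole table. Gm23201 had 54 and 49 counts in WT against 33 and 52 in Hnrnpf bKO, and Snord87 had 1 and 3 in WT against 0 and 4 in Hnrnpf bKO. Both overlapped between genotypes. Poly(A) RNA was sequenced, which leaves out most mature snoRNAs. In GENCODE M21, 31 of the 33 snoRNA genes overlap an exon of at least 1 transcript of the host, so that a read there would belong to both genes. Gm23201 is 1 of these and Snord87 is not. The deposited exonic size of Zfas1, host of Gm23201, is 1901 bases against 2929 in M21, so this overlap may not hold for the deposited counts. How the counting treated such reads is not given in the sources used here.

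The exons counted also hold intron sequence. Of the 25 annotated transcripts of Gas5, 20 are of the retained-intron type, and so are 14 of 18 for Snhg1, 4 of 5 for Zfas1, 3 of 6 for Snhg5 and 1 of 3 for Snhg8. The exonic size in the deposited table covered 100% of the gene span of Snhg1, Snhg8 and Snhg12, 91.3% of that of Gas5 (3760 of 4118 bases, chr1:161034422-161038539) and 17.4% of that of Snhg3. A Gas5 count therefore adds spliced RNA, the form degraded by NMD, to RNA that still carries introns, and the same holds for Snhg1, Snhg8 and Snhg12.

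Per deposited exonic length, Gas5, the growth arrest transcript, with 12 exons in its representative transcript, was the most abundant host. Its FPKM (counts scaled to exonic length and to the total of the library) was 53.1 ± 1.77 in WT and 58.2 ± 0.820 in Hnrnpf bKO (mean ± SD, n = 2). Snhg8 followed with 37.9 ± 4.25 and 37.9 ± 4.09, and Zfas1 with 30.6 ± 0.601 and 27.4 ± 3.33. In WT the next were Snhg12 at 18.2 ± 0.516 and Snhg1 at 17.9 ± 0.389, whose libraries overlapped, then Snhg6 at 14.6 ± 2.33, Snhg15 at 9.18 ± 0.891, Snhg5 at 7.79 ± 0.198 and Snhg3 at 4.24 ± 0.460. Apart from Snhg12 and Snhg1, the WT libraries of each host lay above those of the next host in this order. The middle of the order depended on the exonic size. With the exon union of GENCODE M21, which differs from the deposited size for Zfas1, Snhg15 and Snhg5, the WT means became 19.9 FPKM for Zfas1, 17.9 for Snhg15 and 16.4 for Snhg5, while Gas5 and Snhg8 stayed the highest and Snhg3 the lowest. In several hosts both sizes also hold intron sequence. Snhg8 has 853 bases and Snhg1 2969 bases, against 448 and 605 bases in their representative transcripts. The order per length of spliced RNA was not computed and may differ.

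**Figure D1:**
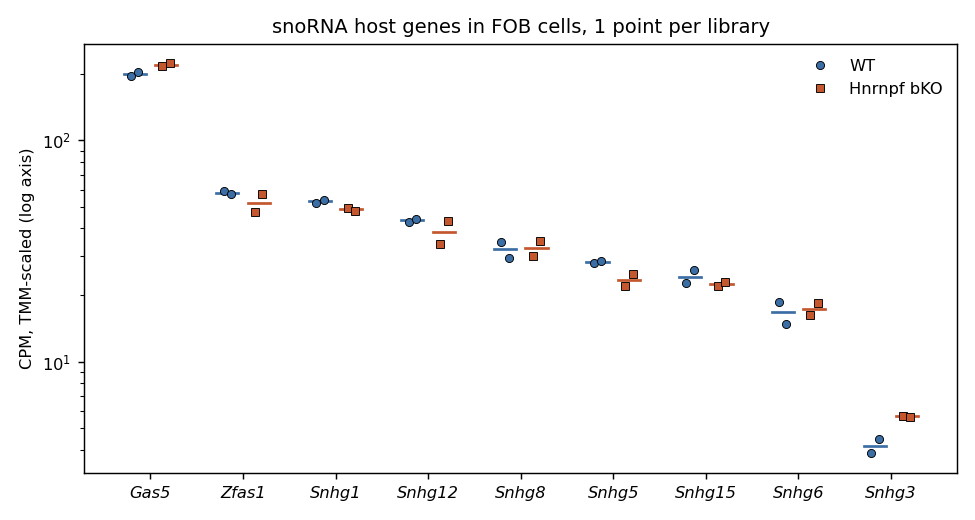
CPM (counts scaled to library size with TMM factors, log axis) of the 9 host genes, 1 point per library (circles WT, squares Hnrnpf bKO) with a line at the mean of 2 libraries. Gas5 is highest at 195 to 223 CPM and Snhg3 lowest at 3.85 to 5.67 CPM, and the genotypes lie close together for each gene.

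None of the 9 host genes passed the test between genotypes. The targeted gene itself fell, with Hnrnpf at 5780 and 6634 counts in WT against 1167 and 1194 in Hnrnpf bKO (log2 fold change -2.32 ± 0.06, SE, adjusted p = 1.05e-10, edgeR quasi-likelihood test with Benjamini-Hochberg adjustment over 14123 genes). At an adjusted p of at most 0.05, 0 of the 9 hosts were called, against 6.97% of all tested genes (586 or 4.15% higher and 399 or 2.83% lower in Hnrnpf bKO). None had the 2-fold change that the study asks for beside it, which 0.899% of all tested genes had (0.644% higher and 0.255% lower). At an unadjusted p under 0.05 there were 2 of 9 with edgeR and 1 of 9 with DESeq2, against 20.3% of all tested genes with edgeR, and DESeq2 likewise called 0. The log2 fold changes ran from -0.26 to 0.44, 4 above and 5 below 0, with a median of -0.11 against -0.00 over all tested genes. Their median size without sign was 0.14, and that of all tested genes was 0.14.

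Gas5, the host with the most counts, lay above WT in both Hnrnpf bKO libraries. On the CPM scale (counts scaled to library size) it had 195 and 203 in WT against 217 and 223 in Hnrnpf bKO, from 3191, 3866, 3401 and 3995 counts. The groups did not overlap, the log2 fold change was 0.14 ± 0.05 (SE, 95% interval 0.03 to 0.26), and the unadjusted p of 0.0165 became 0.130 after adjustment (edgeR).

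Snhg5, which hosts Snord50a and Snord50b, had the lowest fold change of the set. Its values were 27.8 and 28.6 CPM in WT against 22.0 and 24.9 CPM in Hnrnpf bKO. Both Hnrnpf bKO libraries lay below both WT libraries, with a log2 fold change of -0.26 ± 0.10 (SE, 95% interval -0.48 to -0.05, adjusted p = 0.146, edgeR). The unadjusted p was 0.0202.

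Snhg3, host of the H/ACA snoRNAs Snora73a and Snora73b, had the largest fold change and the fewest reads. It had 63 and 85 counts in WT against 89 and 101 in Hnrnpf bKO, or 3.85 and 4.46 CPM against 5.67 and 5.63 CPM. The Hnrnpf bKO libraries lay above the WT libraries, but the log2 fold change of 0.44 ± 0.22 had a 95% interval of -0.03 to 0.91 and an adjusted p of 0.285 (edgeR). Snhg3 shares 705 exonic bases with Gm17300 on the other strand and 135 with Rcc1 on its own strand, and without a known strand setting the reads there cannot be told apart. Gm17300 (log2 fold change -0.14, adjusted p = 0.755) and Rcc1, the guanine nucleotide exchange factor of Ran (-0.11, adjusted p = 0.647), overlapped between genotypes.

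Snhg1, the host of 8 snoRNA genes, was the other gene whose groups did not overlap. It had 52.3 and 53.6 CPM in WT against 49.4 and 48.2 CPM in Hnrnpf bKO, with a log2 fold change of -0.12 ± 0.07 (SE) and an adjusted p of 0.416 (edgeR). In all, the groups of 4 of the 9 hosts did not overlap, 2 higher (Gas5, Snhg3) and 2 lower (Snhg5, Snhg1) in Hnrnpf bKO, beside 50.1% of all tested genes (25.3% higher and 24.8% lower). The share of the hosts was near this background, and they lay apart in both directions.

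In the other 5 hosts the libraries of the genotypes overlapped. Zfas1, named for its place antisense to the start of Znfx1, had 58.9 and 57.0 CPM in WT against 47.6 and 57.0 CPM in Hnrnpf bKO (log2 fold change -0.15 ± 0.09, SE, adjusted p = 0.400, edgeR). Snhg12, host of Snora44, Snora61, Snora16a and Snord99, had 42.8 and 44.2 CPM against 33.9 and 43.2 CPM (-0.17 ± 0.10, adjusted p = 0.394, edgeR). In both, Hnrnpf bKO replicate 1 was the low library and replicate 2 lay at or near the WT values. Snhg15, host of Snora9, had 22.7 and 25.8 CPM against 22.0 and 23.0 CPM (-0.11 ± 0.10, adjusted p = 0.625, edgeR).

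Snhg8 and Snhg6, each with 1 snoRNA gene, had fold changes near 0. Snhg8 had 34.9 and 29.6 CPM in WT against 29.9 and 35.1 CPM in Hnrnpf bKO (0.02 ± 0.11, adjusted p = 0.956, edgeR). Snhg6 had 18.6 and 14.8 CPM against 16.2 and 18.4 CPM (0.06 ± 0.14, adjusted p = 0.863, edgeR). In both genes WT replicate 1 and Hnrnpf bKO replicate 2 were the high libraries, and both fold changes turned below 0 without WT replicate 2 (-0.10 for each) or without Hnrnpf bKO replicate 2 (-0.11 for Snhg8 and -0.04 for Snhg6). The log2 difference between replicates of a genotype was larger than that between genotypes in 5 of the 9 hosts.

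**Figure D2:**
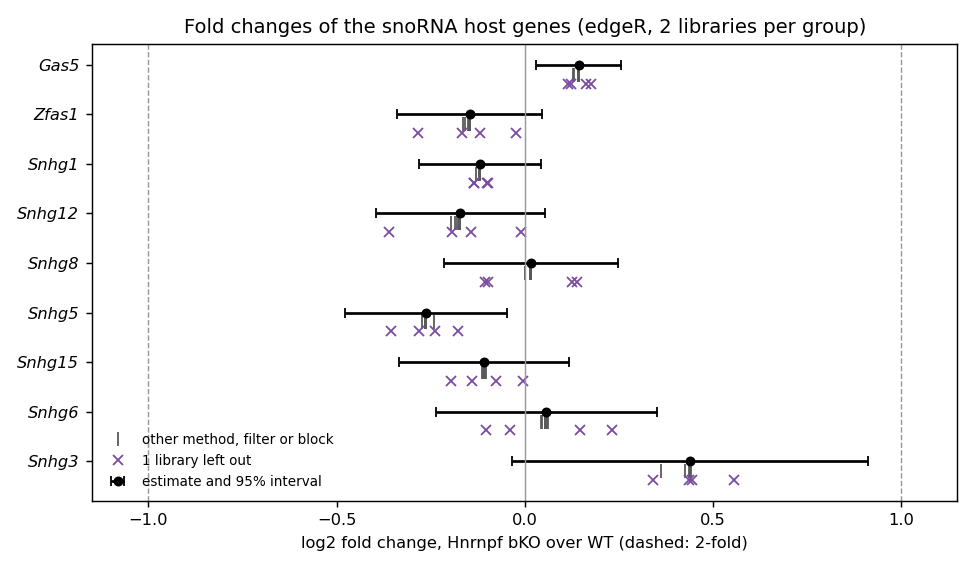
Log2 fold change of each host gene, Hnrnpf bKO over WT, with its 95% interval (black), the values under other methods, filters or the replicate block (grey ticks) and those with 1 library left out (crosses). No interval reaches 2-fold (dashed lines), and only those of Gas5 and Snhg5 leave out 0.

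The intervals set a limit on differences in whole-gene counts between these libraries. For all 9 hosts the 95% interval excluded a 2-fold change in either direction, and for 8 it excluded a 1.5-fold change, the exception being Snhg3 with a fold of 1.36 (0.976 to 1.88). Smaller differences were not excluded by these 2 libraries per group. The spliced form was not measured apart from RNA that still carries introns, so the intervals do not cover it alone. If the spread between libraries is technical, they do not cover differences between mice. Fewer cells of a type and less RNA per cell cannot be told apart in bulk RNA.

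The hosts together took a small and even share of the reads. Their summed level was 457 and 461 CPM in WT against 443 and 478 CPM in Hnrnpf bKO, or 0.0457% and 0.0464% of all counts against 0.0443% and 0.0474%, and the groups overlapped. Gas5 gave 42.7% and 44.0% of this sum in WT and 48.9% and 46.6% in Hnrnpf bKO. Without Gas5 the other 8 summed to 262 and 258 CPM in WT and to 227 and 255 CPM in Hnrnpf bKO. The genes whose CPM over the 4 libraries was closest to this sum, by root mean square distance of centred log2 CPM among 9867 genes averaging 100 counts or more, were Praf2 (0.00251), Scap (0.00442) and Ighv1-18 (0.00519), which with 4 libraries is a description only.

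None of the 9 hosts had a row in the deposited splicing table, which lists 1556 events in 1173 genes. The table holds only events the authors called significant, and how many events of these genes were tested is not known from it. Of the 9875 tested genes averaging 100 counts or more, 10.6% were listed, and 8 of the hosts have such a mean. With 0 of 8 listed beside that share, the hosts cannot be said to differ from other genes of this depth.

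The starts of host introns were searched for the G runs that hnRNP F is known to bind. A transcript sequence covered the first 60 bases of 35 of the 42 annotated host introns, but of only 19946 of 130234 intron starts in all tested genes. The background is thus a selected part, and the 2 shares may not be comparable. Of the 35 host introns, 18 (51.4%) held a run of at least 3 G, against 60.1% of the 19946. By host these were 6 of 10 in Snhg1, 5 of 11 in Gas5, 2 of 4 in Snhg12, 2 of 2 in Snhg8, 1 of 3 in Snhg5, 1 of 4 in Zfas1 and 1 of 1 in Snhg6. The intron starts shown are the 2 of Snhg8, the host in which each of several covered introns held such runs. Also shown is 1 each of Gas5 and Snhg1, the hosts with the most introns. In each of these hosts it is an intron start with the most runs and does not stand for the others. Runs of G are in capitals, and the places on GRCm38 are chr3:123508052-123508111 and chr3:123507757-123507816 on the minus strand, chr1:161035805-161035864 and chr19:8726103-8726162 on the plus strand.
Snhg8 intron a: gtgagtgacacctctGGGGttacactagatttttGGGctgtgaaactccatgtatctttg
Snhg8 intron b: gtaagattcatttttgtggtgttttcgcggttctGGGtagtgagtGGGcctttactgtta
Gas5 intron: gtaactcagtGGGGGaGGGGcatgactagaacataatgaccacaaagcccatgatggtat
Snhg1 intron: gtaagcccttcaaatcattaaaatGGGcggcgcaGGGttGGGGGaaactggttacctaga
A run of G is a description of the letters and no binding site was measured. Snhg8, with runs in both introns, had a log2 fold change of 0.02, and a relation between such runs and host levels was not tested.

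Many host genes of snoRNAs, like the genes of ribosomal proteins, begin transcription in a 5′ terminal oligopyrimidine tract (TOP), a run of pyrimidines after a C that ties translation of the RNA to growth signals. Within 20 bases either side of the RefSeq start (GRCm38.p6), a C followed by pyrimidines in a run of at least 6 was found at 3 of 9 annotated starts (33.3%), against 29.4% of 32851 promoters. The 9 starts belong to 8 hosts, since Gas5 has 2 and Snhg6 was not matched. The searched windows that held a run were chr1:161035146-161035185 on the plus strand in Gas5, chr3:123508317-123508356 on the minus strand in Snhg8 and chr4:132308658-132308697 on the plus strand in Snhg12. They are shown, with the runs in capitals, because they are the ones found.
Gas5 start: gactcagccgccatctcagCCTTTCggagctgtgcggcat
Snhg8 start: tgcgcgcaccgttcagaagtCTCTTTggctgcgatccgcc
Snhg12 start: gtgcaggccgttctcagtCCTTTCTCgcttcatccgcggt
The fold changes of these 3 hosts were 0.14, 0.02 and -0.17 on the log2 scale, on both sides of 0.

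Genes of translation that carry such tracts were measured as a list of 31 symbols, which matched 30 genes, and all 30 were tested. Of these 3 rose and 0 fell, beside 4.15% and 2.83% of all tested genes, and 27 lay above 0, beside 6999 of all 14123 genes. The median log2 fold change was 0.09, against -0.00 over all tested genes. Those that rose were Rpl3 (0.20, adjusted p = 0.0192), Naca, a subunit of the nascent polypeptide-associated complex (0.24, adjusted p = 0.0207), and Rpl23a (0.20, adjusted p = 0.0244), all by edgeR over 14123 genes. Each of these calls was lost in 5 to 7 of 11 alternatives. The elongation factor genes Eef1a1 (0.13, adjusted p = 0.0931) and Eef2 (0.09, adjusted p = 0.252), the most abundant of the others, did not pass.

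Of the factors of NMD, 1 was called. Among 24 tested genes of the route, 0 rose and 1 fell (4.17%, beside 6.97% of all tested genes), with a median log2 fold change of -0.02. Dhx34, a helicase that acts with UPF1, had 1347 and 1576 counts in WT against 1127 and 1223 in Hnrnpf bKO (-0.24 ± 0.07, SE, adjusted p = 0.0469, edgeR), and this call was lost in 8 of 11 alternatives. Upf1, the central helicase (-0.01, adjusted p = 0.929), and Smg1, the kinase that phosphorylates it (-0.07, adjusted p = 0.609), did not pass. Xrn1, the exonuclease that degrades decapped RNA, had a row in the splicing table, a skipped exon. It was 1 of 2 listed among the 23 factors averaging 100 counts or more, beside 10.6% of all tested genes of that depth.

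Coding genes known as targets of NMD were tested for 15 genes. None rose and 2 fell (13.3%, beside 6.97% of all tested genes), with a median of 0.02. Atf4, the stress transcription factor, had 3621 and 3953 counts in WT against 2907 and 3368 in Hnrnpf bKO (-0.20, adjusted p = 0.0410, edgeR), and Sat1, the polyamine acetyltransferase, had 2147 and 2373 against 1675 and 2034 (-0.22, adjusted p = 0.0469, edgeR). Each call was lost in 7 of 11 alternatives. The splicing factor genes Srsf6 (0.09, adjusted p = 0.302) and Hnrnpl (0.02, adjusted p = 0.842), the most abundant of the others, did not pass.

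The proteins that bind and assemble snoRNAs showed no call. Of 18 tested, 0 rose and 0 fell at an adjusted p of at most 0.05, beside 6.97% of all tested genes, with a median log2 fold change of 0.07. Nop56, a core protein of box C/D particles (0.14, adjusted p = 0.138), and Nolc1, a nucleolar chaperone of snoRNA particles (-0.01, adjusted p = 0.943), the most abundant of the list, did not pass (edgeR). Rpap3 and Nolc1, 2 of the 18, had a row in the splicing table, beside 10.6% of the 9875 tested genes averaging 100 counts or more.

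Other noncoding hosts had no call either. Of 14 listed, 10 were tested, and 0 rose and 0 fell, beside the same share, with a median of 0.02. Snhg17 had 1158 and 1360 counts in WT against 966 and 1076 in Hnrnpf bKO (-0.23 ± 0.07, SE, adjusted p = 0.0689, edgeR), the lowest adjusted p of the list. Snhg20 (0.02, adjusted p = 0.919) lay near 0, and the 2 genes with the symbol Snhg4 were counted separately. 1 of them is annotated as coding and is also counted in the next list. Coding genes that hold a snoRNA gene, 195 tested, gave 8 that rose and 6 that fell, or 7.18%, against 6.97% of all tested genes, with a median of 0.01. Among them Cep85 rose (0.69, adjusted p = 3.54e-04) and so did Rpl37 (0.23, adjusted p = 0.0129), while Ints4, an Integrator subunit (-0.34, adjusted p = 0.00477), and Gtf2a1, a subunit of TFIIA (-0.35, adjusted p = 0.0133), fell. Eef2 and Rpl4 (0.11, adjusted p = 0.192), the most abundant of the others, did not pass.

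**Figure D3:**
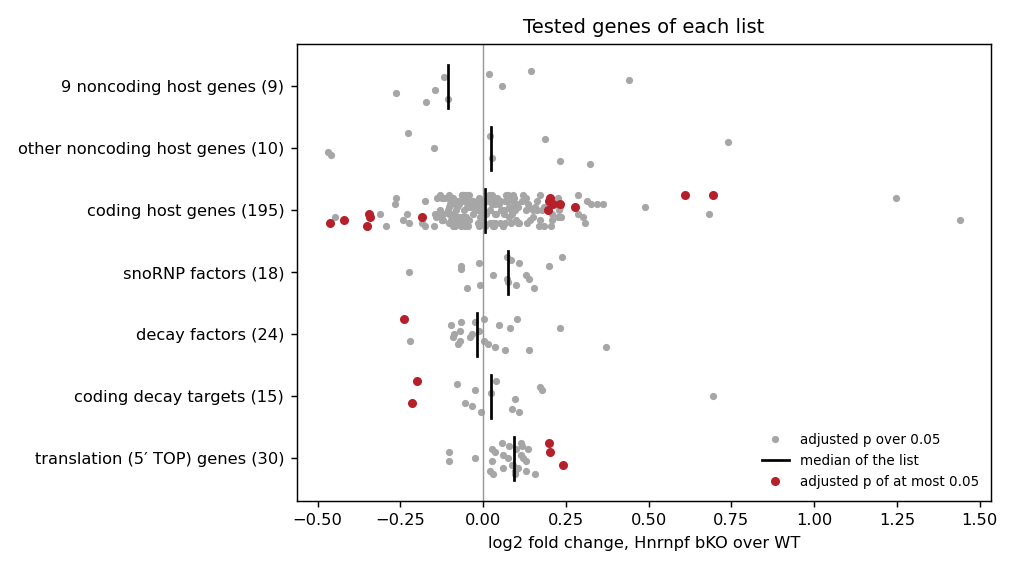
Log2 fold change, Hnrnpf bKO over WT, of each tested gene of 7 lists, 1 point per gene (red where the adjusted p is at most 0.05) with a line at the median of the list. None of the 9 hosts is red, and their median of -0.11 lies below those of the other lists, which run from -0.02 to 0.09.

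Genes that start beside a host on the other strand share its promoter region and were read with it. Slc3a2, the heavy chain of amino acid transporters, starts 106 bases from Snhg1 on the other strand. It had 1894 and 2017 counts in WT against 1506 and 1604 in Hnrnpf bKO and fell (-0.26 ± 0.07, SE, adjusted p = 0.0331, edgeR), a call lost in 6 of 11 alternatives, while Snhg1 had -0.12. Zbtb37, which starts 427 bases from Gas5, had a log2 fold change of -0.05 (adjusted p = 0.758), and Znfx1, which starts 81 bases from Zfas1 and shares 82 exonic bases with it, had -0.03 (adjusted p = 0.854). Mcmdc2 shares 127 exonic bases with Snhg6 on the other strand and had 22 and 13 counts in WT against 4 and 10 in Hnrnpf bKO (-1.26, adjusted p = 0.250). Gm27494, within Zfas1, had 0 counts in all libraries.

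The counts per library ran from 15698567 to 18908963. Among markers of B cells, Ighd and Fcer2a rose and Cr2, Ms4a1 and Pax5 fell. Of 16 markers of other cell types, 15 were tested. Of these 2 (13.3%), S100a8 and S100a9, which neutrophils make, rose, beside 4.15% of all tested genes. Summed over the 16 markers, the level was 55.4 and 80.0 CPM in WT against 67.9 and 92.1 CPM in Hnrnpf bKO. Their part in the host values was not tested.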

How the data were processed

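The libraries of 2 WT and 2 Hnrnpf bKO samples were grouped by their labels. Poly(A) RNA was sequenced in paired-end reads. Per the labels and methods, the authors used bcl2fastq 2.17.1.14, FastQC 0.10.1, cutadapt 1.9.1, HISAT2 2.0.1 on GRCm38 and HTSeq 0.6.1. The deposited counts are unnormalised read counts per gene, and the FPKM values deposited beside them were derived by the authors using the exonic gene size. Annotation release, strand setting and overlap mode are not given in the sources used here. Of the authors' deposited splicing table (rMATS) only the gene names and event types were used; its FDR and inclusion differences, which hold the authors' comparison, were not.

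Counts were compared with edgeR 4.0.16 in R 4.3.3 (TMM, filterByExpr, quasi-likelihood test, Benjamini-Hochberg adjustment over 14123 genes, calls at adjusted p ≤ 0.05). The study names DESeq2 and a 2-fold threshold. DESeq2 1.42.0, RLE factors, other filters, limma 3.58.1 on log2(FPKM + 0.1) and log2(FPKM + 1), a replicate block, each library left out, and other thresholds were alternatives. With 2 per group an exact permutation test cannot go below p = 0.333. The biological coefficient of variation was 5.90%. On counts simulated for this comparison over 13896 genes the test called 200 of 200 changed genes (all changed at least 2-fold) and 10 of the others. Every simulated gene had the same coefficient of variation. The changed genes were drawn from those averaging at least 100 counts, which leaves out Snhg3. Differences as small as those of the hosts were not simulated.

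The members and lists were chosen with earlier results of these data known. Genes were named by rule: the members, Hnrnpf, genes overlapping a member or starting near it on the other strand, snoRNA genes with counts, up to 4 called and 2 abundant uncalled genes per list, and the 3 closest in profile; splicing rows of list genes were added after they were seen. Transcripts, exons and intron sequence came from GENCODE M21 and starts from RefSeq; bounds of 7 of 9 hosts equal those of M21. Some items are not reported here.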

Additional observations from a re-analysis of the deposited data

How the results depend on the processing

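The count of hosts called was 0 higher and 0 lower under every alternative run, with 1 to 3 hosts at an unadjusted p under 0.05. Over all genes, 586 were higher and 399 lower. These became 29 and 16 with limma on log2(FPKM + 0.1), 26 and 15 on log2(FPKM + 1), 242 and 150 at the stricter adjusted p of 0.01, and 91 and 36 with a 2-fold change; without a filter 636 were lower. With 1 library left out, which assumes that the lone library varies like the other group, they ran from 403 to 531 and from 276 to 333. With the replicate number as a block they were 378 and 234. Replicate numbers come from labels only, and across genes the differences between replicates of the 2 genotypes correlated at -0.09, so the block is not taken as a pairing; no host was called with it.

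Of 99 host values under alternatives, 95 kept their direction and side of the threshold. With 1 library left out, the log2 fold change of Snhg6 ran from -0.10 to 0.23 (-0.10 without WT replicate 2, -0.04 without Hnrnpf bKO replicate 2), and that of Snhg8 from -0.11 to 0.14 (-0.10 and -0.11 without the same libraries); the cause was not tested. Without Hnrnpf bKO replicate 1, the log2 fold changes of Snhg12 and Zfas1 were -0.01 and -0.02, and without replicate 2 they were -0.36 and -0.28; that of Snhg15 ranged from -0.20 to -0.00, the latter without WT replicate 2. The lowest adjusted p of any host was 0.0690, for Snhg12. Snhg3, with a mean of 84.5 counts, had the widest interval of the 9.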

Other observations

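Prss12, a serine protease gene chosen here after its values were seen, ends 954 bases from the end of Snhg8 on the opposite strand. It had 80 and 115 counts in WT against 350 and 455 in Hnrnpf bKO and rose (log2 fold change 2.12 ± 0.15, SE, adjusted p = 3.70e-06, edgeR quasi-likelihood test), a call that held in 11 of 11 alternatives. Snhg8 itself had a log2 fold change of 0.02.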
